A study of Mus musculus with 9 samples.

Results

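Solute carriers are membrane proteins that move amino acids, sugars, nucleotides, metals, vitamins and ions across the plasma membrane and the membranes of mitochondria, lysosomes, the Golgi apparatus and the endoplasmic reticulum. Their genes carry the symbol Slc followed by a family number. They were followed here in regulatory T cells (Tregs), CD4 T cells that depend on the transcription factor Foxp3 and hold immune responses in check. Members were all genes of the deposited normalized table whose symbol starts with Slc and a digit and whose mean over the 9 libraries was 50 or more, leaving out 5 glucose, lactate and iron transporters by name (Slc2a1, Slc2a3, Slc16a1, Slc16a3 and Slc40a1). Of 369 such symbols in a table of 23420 genes, 103 had no read in any library, 113 had reads and a mean under 50, and 153 reached 50. Of the 5 left out by name, 4 were among these, so 149 members remained. They comprised 145 genes for transporters in 42 families and 4 genes that carry an Slc symbol and encode no transporter. The members were chosen on their mean over all libraries and not on any difference between groups. The mean reached 50 in every group for 133 members. It lay under 50 in both node groups for 4 and under 50 in synovium alone for 4, and these passed the minimum through the groups where they were high. The former were Slc11a1, Slc19a2, Slc30a1 and Slc37a2, and the latter included Slc16a5, Slc22a2 and Slc25a42. Slc15a3 had 0 to 49.3 in control nodes and Slc36a4 had 30.4 to 42.8 in arthritic nodes, and their synovial libraries also raised their means. The rises of the former, of Slc15a3 and of Slc36a4, and the falls of the latter, given below, are therefore not independent of the selection.

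The study compared 3 groups of 3 libraries, all from mice labelled wild type whose Tregs were sorted on a YFP reporter of Foxp3. The groups were Tregs from the synovium, the lining of the joint, of mice with collagen-induced arthritis; Tregs from the lymph nodes draining the joints of arthritic mice; and Tregs from the nodes of control animals labelled as having had no treatment. Collagen-induced arthritis is a mouse model of inflammatory joint disease set off by immunization against collagen. Paws and nodes were digested to free the cells, and the labels give neither the strain, the age nor the time after immunization. The titles number separate mice, and numbers 1 to 3 recur between synovium and node within the arthritic group.

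Each library held 11300406 to 12855435 reads assigned to genes, and 3 reads corresponded to normalized counts of 2.61 to 3.52. The leading principal component (53.1% of the variance) separated synovial from node libraries, and control node library 1 stood apart on the next (10.9%), at 83.5. The Treg markers Foxp3, Il2ra, Ctla4, Ikzf2, Tnfrsf18, Cd4, Cd3e and Cd3g summed to 150030 to 159434 in synovial libraries, 66679 to 74360.1 in arthritic nodes and 73568 to 75841 in control nodes. Il2ra, Ctla4, Ikzf2 and Tnfrsf18 were called higher in synovial than in arthritic node Tregs. Foxp3, Cd4, Cd3e and Cd3g were not (limma adjusted p = 0.0597, 0.107, 0.955 and 0.109). A list of 12 genes of tissue dissociation and stress summed to 104977 to 140978 in synovial libraries, against 12075 to 19279 in arthritic and 12409 to 16268 in control node libraries, with 9 of 12 higher in synovial than in arthritic node Tregs. The part of this list in the differences between tissues was not tested. Transcripts of fibroblasts were highest in synovial library 3, with 455 for Dcn against at most 41.1 in the other libraries, while of 7 fibroblast markers tested 0 were higher and 1 was lower in synovial than in arthritic node Tregs. In sorted populations, fewer cells of a kind and less RNA per cell cannot be told apart.

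Transcripts of Slc genes differed between synovial and arthritic node Tregs in both directions. Levels are normalized read counts, given in the order of mice 1, 2 and 3, and differences are log2 fold changes ± standard error from limma on log2(normalized count + 1), with p-values adjusted over 11357 genes. Of the 149 members, 36 rose in synovial Tregs (24.2% of members, where 17.9% of all genes tested rose) and 28 fell (18.8%, where 15.9% of all genes fell), at an adjusted p under 0.05. The median difference over members was -0.01, and over all genes tested 0.00. Libraries of the synovium and the arthritic node did not overlap for 84 members (56.4%), where this held for 48.2% of all genes, and they did not overlap in any of the 64 called members. Members had a mean of at least 50, and all genes tested had a mean of at least 10. These shares and those below thus set genes of unlike level side by side. They do not show that Slc genes were called more often than other genes of their level. Differences of at least 4-fold were called for 12 members that rose and 4 that fell. In fits that each left out 1 of the 6 libraries, 25 to 32 members rose and 20 to 23 fell. Without synovial library 3, the one with fibroblast transcripts, 28 rose and 23 fell, and 23 risen and 17 fallen members passed in every one of these fits.

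**Figure D1:**
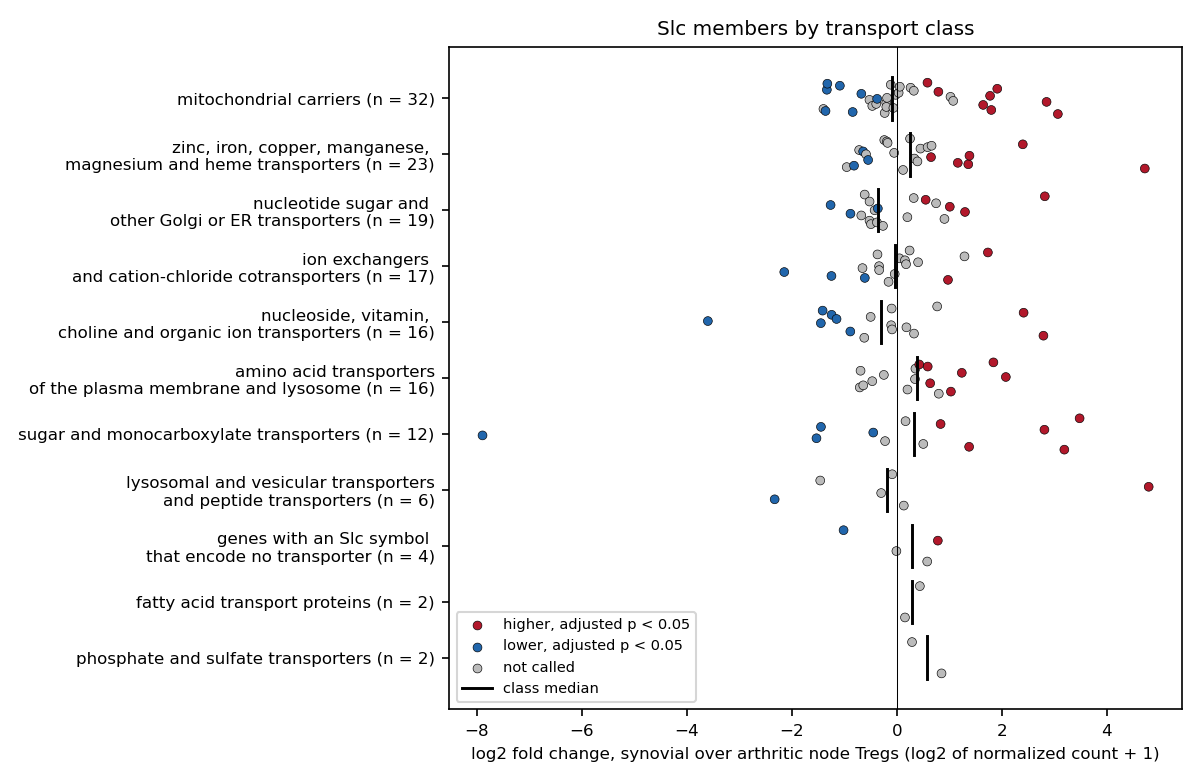
Differences of all 149 members between synovial and arthritic node Tregs, by transport class. Each point is a member, the horizontal axis is its log2 fold change on normalized counts with 1 added, the colour is its call at an adjusted p under 0.05, and the bar is the class median. Called members lie on both sides of 0 in 7 of the 8 classes of 6 or more transporters, and on the higher side alone among the 16 members of the amino acid transporter families.

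The amino acid transporter families of the plasma membrane and lysosome were the class with calls in 1 direction. Of 16 members, which include the purine nucleobase carrier Slc43a3 by its family, 7 rose, 0 fell and 9 did not pass, with a class median of 0.39. Called members made up 43.8% of the class, where 33.8% of all genes tested were called. Of the 7, only 3 passed in every fit that left out 1 library. Slc3a2 encodes the heavy chain CD98, which carries several amino acid exchangers to the cell surface. It had 11488, 11754 and 11559 in synovial libraries, against 2520.2, 3059 and 2704 in arthritic nodes and 2764, 2425 and 2842 in control nodes. Every synovial library lay above every node library, and the synovial libraries lay within a narrow range. Slc3a2 rose by 2.08 ± 0.10 (adjusted p = 4.33e-08), 4.20-fold as a ratio of means. Slc7a5, which encodes the light chain LAT1 that pairs with CD98, stayed low, with 54, 43.4 and 127 in synovium, 97.4, 52 and 99.6 in arthritic and 18.1, 81.2 and 107 in control nodes. These libraries overlapped, and the difference of -0.25 ± 0.67 did not pass (adjusted p = 0.808). Slc7a6, which encodes another CD98 partner, had 878, 966 and 863 in synovium and 716, 706 and 597 in arthritic nodes and rose by 0.43 ± 0.15 (adjusted p = 0.0395). This call did not pass when mouse numbers entered as a block (adjusted p = 0.0639), was lost in 5 of 6 fits that each left out 1 library (adjusted p = 0.0607 to 0.143), and was kept without synovial library 3. It also did not pass with edgeR (adjusted p = 0.0647), quantile scaling (adjusted p = 0.0929) or only the 2 groups fitted (adjusted p = 0.0540).

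Slc38a2, a sodium-coupled carrier of small neutral amino acids such as glutamine and alanine, had 2852, 2778 and 2047 in synovium against 1244, 1311 and 1169 in arthritic nodes and 1336, 1246 and 959.6 in control nodes. The libraries did not overlap, and it rose by 1.03 ± 0.16 (adjusted p = 0.000388). Its paralog Slc38a1, whose gene lies 44479 bases away on chromosome 15, differed by 0.34 ± 0.15 (adjusted p = 0.0887). Slc1a5, the glutamine exchanger ASCT2, was among the highest members in all groups, with 5054, 3095 and 4734 in synovium, 3277, 3475 and 4274 in arthritic and 3572, 3370 and 5018 in control nodes. Its groups overlapped and differed by 0.20 ± 0.20 (adjusted p = 0.465). Slc36a4, a carrier of proline and tryptophan, had 97, 191 and 144 in synovium against 30.4, 42.3 and 42.8 in arthritic nodes and rose by 1.84 ± 0.45 (adjusted p = 0.00701), a change among low counts. The taurine transporter Slc6a6 rose by 0.63 ± 0.18 (adjusted p = 0.0149), a call lost without arthritic node library 2 or synovial library 3 (adjusted p = 0.0598 to 0.0609), and did not pass with quantile scaling (adjusted p = 0.104).

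Slc43a2, the carrier LAT4 of large neutral amino acids, rose by 0.59 ± 0.21 (adjusted p = 0.0439). Its call did not pass with the mouse block (adjusted p = 0.0546), was lost in 4 of 6 fits that each left out 1 library (adjusted p = 0.1 to 0.149), and was kept without synovial library 2 or arthritic node library 1. It also did not pass with edgeR (adjusted p = 0.0623), quantile scaling (adjusted p = 0.0529) or only the 2 groups fitted (adjusted p = 0.0528). TMM scaling (adjusted p = 0.0501) and no filter (adjusted p = 0.0502) lost it narrowly. Slc43a3, which sits in the same family and carries purine nucleobases, rose by 1.24 ± 0.36 (adjusted p = 0.0199), a call lost without synovial library 3, synovial library 1 or arthritic node library 1 (adjusted p = 0.0575 to 0.0841). The arginine transporter Slc7a1 had 284, 333 and 312 in synovium against 160, 239.6 and 146 in arthritic nodes, without overlap. It differed by 0.80 ± 0.33 (adjusted p = 0.0791), and passed under the mouse block (adjusted p = 0.0454) and with only the 2 groups fitted (adjusted p = 0.0418). The lysosomal Slc38a9, which senses arginine for mTORC1, differed by -0.47 ± 0.25 (adjusted p = 0.166) and the lysosomal Slc36a1 by -0.64 ± 0.72 (adjusted p = 0.531). The class count of 7 fell to 4 without synovial library 1, where 1 member also fell, to 4 without synovial library 3 or arthritic node library 2, and to 4 with quantile scaling.

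**Figure D2:**
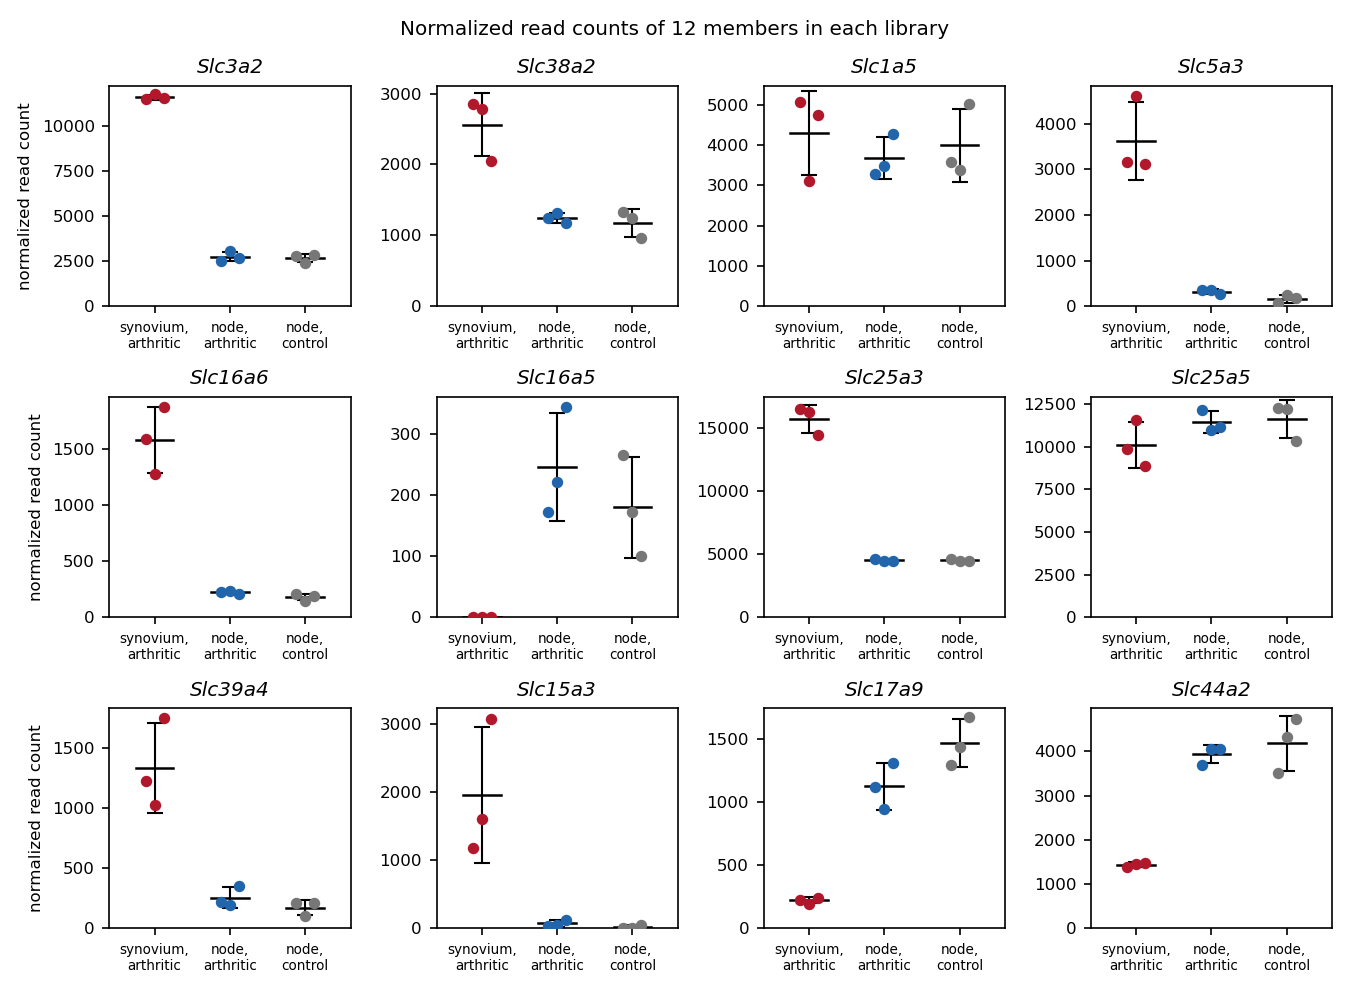
Normalized read counts of 12 members in each library. Points are libraries, horizontal bars are means and vertical bars are SD (n = 3), with synovial, arthritic node and control node Tregs from left to right. The synovial libraries stand apart from both node groups in Slc3a2, Slc38a2, Slc5a3, Slc16a6, Slc16a5, Slc25a3, Slc39a4, Slc15a3, Slc17a9 and Slc44a2, and overlap them in Slc1a5 and Slc25a5.

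Among 12 members of the sugar and monocarboxylate transporter families, which include the vitamin carrier Slc5a6 by its family, 5 rose, 4 fell and 3 did not pass, with a median of 0.33 (75% called, where 33.8% of all genes tested were). The count that rose was 3 without arthritic node library 1 or 3, without synovial library 1 or 3, and without the filter on low genes. The count that fell was 2 without arthritic node library 1 or 2 or synovial library 2, and the median was 0.10 without synovial library 3. The myo-inositol transporter Slc5a3, which supplies the precursor of phosphoinositides and an osmolyte, had 3158, 4596 and 3106 in synovial libraries, against 349, 348 and 265 in arthritic nodes and 72.3, 247 and 186 in control nodes. The lowest synovial library exceeded the highest node library many times over, and Slc5a3 rose by 3.48 ± 0.36 (adjusted p = 1.6e-05), 11.3-fold as a ratio of means. Its exons share 1.46% of their bases with Mrps6, which had 895, 763 and 884 in synovium and 426, 429 and 268 in arthritic nodes. Slc5a6, the sodium-dependent carrier of biotin and pantothenate in the same family, went the other way with 66.1, 27 and 98.9 in synovium and 169.6, 191 and 137 in arthritic nodes. It fell by 1.53 ± 0.44 (adjusted p = 0.0185), a call lost without synovial library 2, arthritic node library 1 or arthritic node library 2 (adjusted p = 0.0528 to 0.0664).

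In the monocarboxylate family, Slc16a6 (MCT7) and Slc16a5 (MCT6) moved apart. Slc16a6 had 1594, 1281 and 1872 in synovial libraries, against 223, 238 and 207 in arthritic nodes and 206, 148 and 189.9 in control nodes, and rose by 2.81 ± 0.21 (adjusted p = 9.71e-07), 7.11-fold as a ratio of means. Its exons share 21.5% of their bases with other genes, mostly with Amz2 on the other strand, which had 1869.9, 1873 and 1344 in synovium and 577, 361 and 515 in arthritic nodes. The strand setting of the counting is not given in the sources used here, so the reads and the fold of Slc16a6 are uncertain. Slc16a5 had no read in any synovial library, against 173, 222 and 344 in arthritic nodes and 267, 173 and 101 in control nodes. It fell in synovial Tregs (adjusted p = 7.8e-07) and was at least 72.5-fold lower than in arthritic nodes, taking 3 reads per synovial library as the floor.

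The Slc37 family of sugar phosphate carriers of the endoplasmic reticulum had members on both sides. Slc37a2, known from macrophages, had 172, 250.1 and 582 in synovium, against 31.3, 72.2 and 13.1 in arthritic nodes and 0, 28.9 and 16.4 in control nodes. It rose by 3.19 ± 1.10 (adjusted p = 0.0412), a call lost in 5 of 6 fits that each left out 1 library (adjusted p = 0.062 to 0.149) and kept without arthritic node library 2, and it did not pass without the filter on low genes (adjusted p = 0.0660) or with 0.5 added in place of 1 (adjusted p = 0.0734). Slc37a3 rose by 0.83 ± 0.21 (adjusted p = 0.00949), Slc37a1 fell by 1.45 ± 0.32 (adjusted p = 0.00413), and Slc37a4, the glucose 6-phosphate transporter, differed by -0.22 ± 0.26 (adjusted p = 0.544). Of 9 macrophage and monocyte markers measured, 4 were tested. Cd14 was called higher in synovium (70.5, 196 and 66.3 against 0, 0 and 14.9 in arthritic nodes, adjusted p = 0.00516). Lyz2 had 14.3, 48.1 and 0 against 190, 8.66 and 307 (adjusted p = 0.11), and C1qb 4.41, 0 and 0 against 70.4, 0 and 82.1 (adjusted p = 0.156). Cd68 did not pass (adjusted p = 0.558). C1qc, Mrc1 and Fcgr1 were at 0 in every synovial library and at most 18.3, 29.8 and 6.09 in arthritic nodes. The marker sum was 79.8 to 314 in synovial, 62.5 to 559 in arthritic node and 74.03 to 372 in control node libraries. The part of such cells in the rise of Slc37a2 was not tested. Slc2a8 (GLUT8) rose by 1.38 ± 0.49 (adjusted p = 0.0467) and the sugar carrier Slc50a1 (SWEET1) fell by 0.45 ± 0.14 (adjusted p = 0.0252). The call of Slc2a8 was lost in 5 of 6 fits that each left out 1 library (adjusted p = 0.0683 to 0.188), and was kept without synovial library 2. That of Slc50a1 was lost in 5 of 6 fits that each left out 1 library (adjusted p = 0.0579 to 0.0758), and was kept without synovial library 1.

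Promoters are shown for Slc5a3 and Slc37a2, taken from the members that rose at least 4-fold, and for Slc12a7, taken from those that fell. That of Slc3a2, the highest per kilobase of exon in synovium among members that rose, is also shown. They run from 250 bases before to 50 bases after a RefSeq start (GRCm38.p6), and capitals mark the motifs that were found. The starts for Slc3a2 and Slc12a7 lie inside the genes' GENCODE spans, and that for Slc12a7 is the shown one of 2.
Slc5a3, chr16:92058072-92058371, plus strand: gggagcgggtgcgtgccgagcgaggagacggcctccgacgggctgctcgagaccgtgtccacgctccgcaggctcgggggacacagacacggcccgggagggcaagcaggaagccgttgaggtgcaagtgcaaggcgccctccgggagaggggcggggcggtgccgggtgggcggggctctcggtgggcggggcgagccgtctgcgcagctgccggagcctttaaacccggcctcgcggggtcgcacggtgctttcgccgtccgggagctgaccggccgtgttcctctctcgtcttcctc
Slc37a2, chr9:37255689-37255988, minus strand: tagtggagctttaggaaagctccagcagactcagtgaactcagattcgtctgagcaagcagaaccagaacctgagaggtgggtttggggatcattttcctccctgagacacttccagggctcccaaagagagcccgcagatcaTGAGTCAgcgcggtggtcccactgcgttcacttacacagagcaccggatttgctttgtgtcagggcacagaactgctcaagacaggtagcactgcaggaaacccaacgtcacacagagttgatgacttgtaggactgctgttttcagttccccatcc
Slc3a2, chr19:8713848-8714147, minus strand: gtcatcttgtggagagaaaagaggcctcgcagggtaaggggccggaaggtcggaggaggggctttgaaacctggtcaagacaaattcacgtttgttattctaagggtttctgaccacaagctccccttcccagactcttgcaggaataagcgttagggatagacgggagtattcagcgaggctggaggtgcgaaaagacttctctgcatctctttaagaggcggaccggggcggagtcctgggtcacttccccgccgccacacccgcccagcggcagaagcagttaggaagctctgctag
Slc12a7, chr13:73763410-73763709, plus strand: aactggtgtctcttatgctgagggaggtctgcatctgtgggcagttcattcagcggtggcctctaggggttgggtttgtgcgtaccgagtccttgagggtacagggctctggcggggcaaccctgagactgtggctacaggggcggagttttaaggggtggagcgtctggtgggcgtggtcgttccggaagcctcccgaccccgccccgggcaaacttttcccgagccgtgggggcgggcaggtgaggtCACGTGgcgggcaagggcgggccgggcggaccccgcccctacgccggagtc
RefSeq promoters were matched for 110 of 149 members and were searched on both strands for the AP-1 motif TGANTCA, the cAMP response element TGACGTCA, the amino acid response element of the form TGATGNAA, and the E-box CACGTG, of which none contains another. Slc37a2 held an AP-1 motif whose first base lay at -107 from the start, Slc12a7 held an E-box at -1, and the windows of Slc5a3 and Slc3a2 held none of these letters. Windows not shown held none either for Slc11a1, Slc25a25, Slc35d1 and Slc19a2, which rose at least 4-fold, and for Slc22a2, which fell. The AP-1 motif was in 8 of 110 member promoters (7.27%, where 7.93% of all 27025 promoters held it), with 1 of 25 members that rose and 1 of 20 that fell. The cAMP response element was in 3 (2.73%, against 1.88% of all) and the amino acid response element in 2 (1.82%, against 4.06% of all). The E-box was in 16 (14.5%, where 7.24% of all held it), with 2 of the 25 that rose and 1 of the 20 that fell. These matches are a description of the letters and not of binding.

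The mitochondrial carriers, most of them in family 25, move metabolites, nucleotides and cofactors across the inner membrane. Of 32 members, 8 rose, 7 fell and 17 did not pass, with a median of -0.09 (46.9% called, where 33.8% of all genes tested were). The count that fell was 4 without synovial library 1 or arthritic node library 3. Slc25a3, the carrier of phosphate for ATP synthesis, had 16494, 16272 and 14446 in synovium, against 4591, 4474 and 4486 in arthritic nodes and 4660, 4496 and 4448 in control nodes. The node libraries lay close together, and Slc25a3 rose by 1.80 ± 0.09 (adjusted p = 4.05e-08). Slc25a25, which exchanges ATP-Mg for phosphate, had 596, 506 and 1007 in synovium against 103, 127 and 60.3 in arthritic nodes and rose by 2.85 ± 0.47 (adjusted p = 0.000583). Slc25a36, a carrier of pyrimidine nucleotides, had 825, 949 and 808 in synovium against 364, 308 and 105 in arthritic nodes, where mouse 3 was lowest. It rose by 1.91 ± 0.38 (adjusted p = 0.00194).

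The ADP/ATP carriers were among the highest members and moved little. Slc25a5, whose sequence has close relatives in the genome that can share its reads, had 9857, 11561 and 8875 in synovium, 12180, 10965 and 11192 in arthritic and 12265, 12246 and 10324 in control nodes. These overlapped and differed by -0.19 ± 0.11 (adjusted p = 0.233). With quantile scaling, which shifted the median of all genes to -0.12, Slc25a5 fell by 0.68 (adjusted p = 9.76e-05). Slc25a4 had 2832, 2739 and 3439 in synovium against 4028, 3643 and 3971 in arthritic nodes and fell by 0.38 ± 0.11 (adjusted p = 0.0188). This call was lost in 4 of 6 fits that each left out 1 library (adjusted p = 0.0527 to 0.0686), and was kept without synovial library 3 or arthritic node library 2. The carnitine and acylcarnitine carrier Slc25a20 rose by 0.58 ± 0.18 (adjusted p = 0.0283). Its call did not pass with quantile scaling (adjusted p = 0.0801), was lost in 4 of 6 fits that each left out 1 library (adjusted p = 0.0766 to 0.112), and was kept without synovial library 3 or arthritic node library 2.

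The 7 mitochondrial carriers that fell included carriers of amino acids. Slc25a12, the aspartate and glutamate carrier, had 660, 559 and 398 in synovium against 965, 993 and 884 in arthritic nodes and fell by 0.84 ± 0.19 (adjusted p = 0.00499), while its paralog Slc25a13 differed by 1.07 ± 0.55 (adjusted p = 0.157). The glutamate carrier Slc25a22 had 152, 61.1 and 151 in synovium against 268, 324 and 258 in arthritic nodes and fell by 1.32 ± 0.35 (adjusted p = 0.011). The carrier of basic amino acids Slc25a29 fell by 1.33 ± 0.47 (adjusted p = 0.044) and the coenzyme A carrier Slc25a42 by 1.36 ± 0.48 (adjusted p = 0.0456). Neither call passed with the mouse block (adjusted p = 0.0711 and 0.0733) or with edgeR (adjusted p = 0.0586 and 0.0757). The call of Slc25a29 was lost in 5 of 6 fits that each left out 1 library (adjusted p = 0.0536 to 0.154), and was kept without synovial library 3. That of Slc25a42 was lost in 5 of 6 fits that each left out 1 library (adjusted p = 0.0956 to 0.134), and was kept without synovial library 2. Of further family members, chosen after their values were seen, Slc25a11, the oxoglutarate carrier, which like Slc25a12 serves the malate-aspartate shuttle, fell by 0.68 ± 0.14 (adjusted p = 0.0026) and Slc25a45 by 1.09 ± 0.23 (adjusted p = 0.00357). Slc25a51, which imports NAD+, rose by 1.77 ± 0.22 (adjusted p = 5.89e-05), and Slc25a38, which imports glycine for heme synthesis, rose by 1.64 ± 0.32 (adjusted p = 0.00174). Slc25a24, a paralog of Slc25a25, rose by 0.79 ± 0.22 (adjusted p = 0.0141), a call lost without arthritic node library 1 or synovial library 3 (adjusted p = 0.0503 to 0.0514). The citrate carrier Slc25a1 differed by 0.26 ± 0.35 (adjusted p = 0.609), the iron importer Slc25a37 (mitoferrin) by -0.23 ± 0.48 (adjusted p = 0.747) and the glutathione carrier Slc25a39 by -0.52 ± 0.29 (adjusted p = 0.186).

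**Figure D3:**
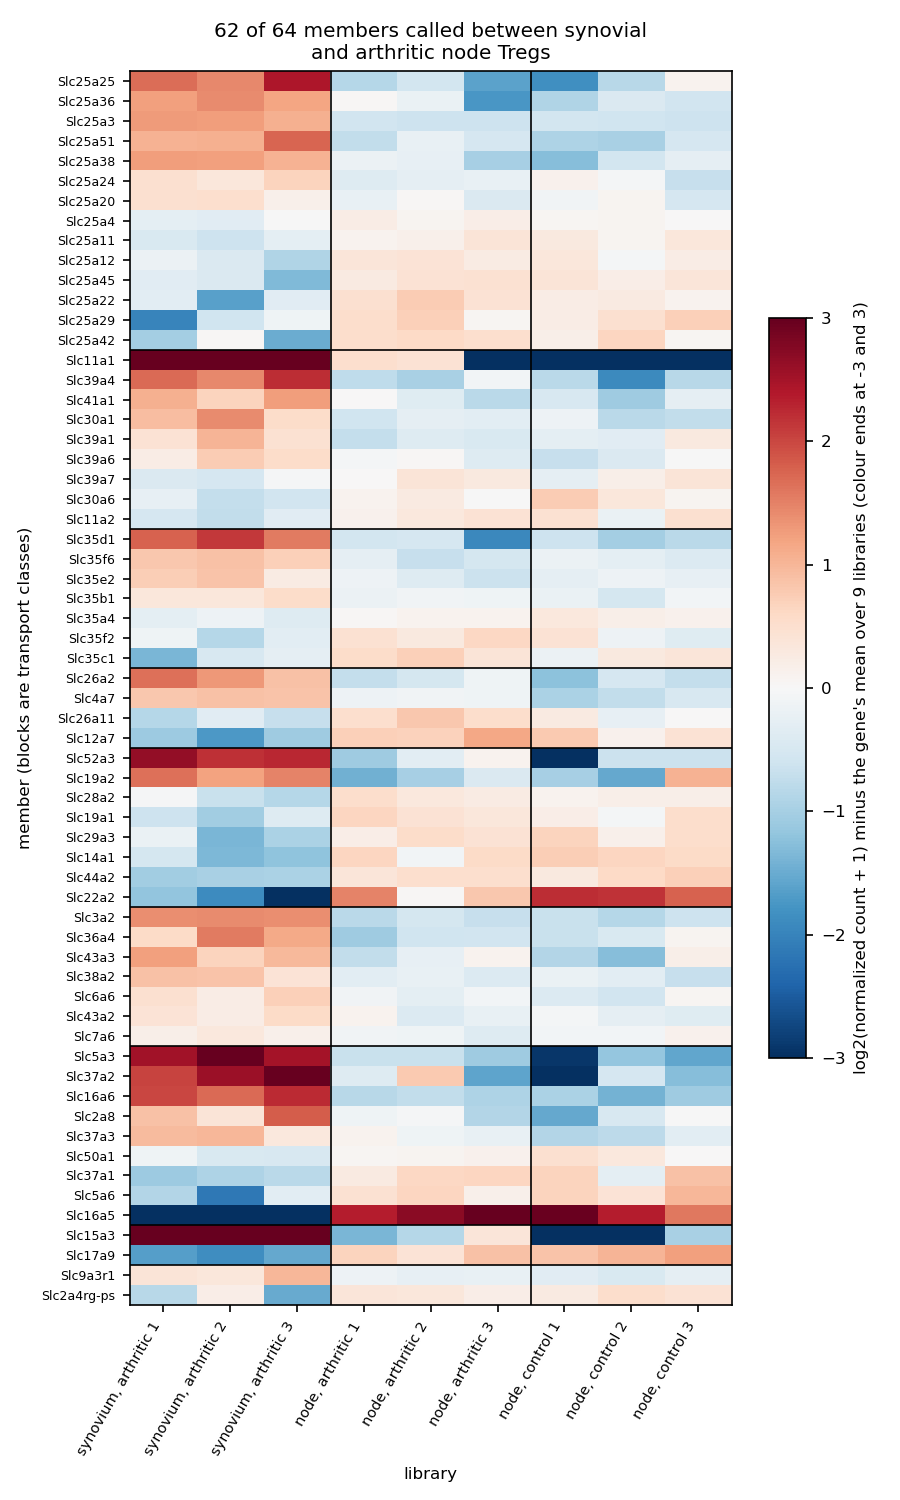
In all 9 libraries, 62 of the 64 members called between synovial and arthritic node Tregs. Rows are members in blocks by class, columns are libraries, and colour is log2(normalized count + 1) minus the member's mean, cut off at -3 and 3. The control node columns resemble the arthritic node columns in most rows, and the rows of Slc11a1, Slc15a3, Slc37a2 and Slc52a3 hold their lowest values in control nodes.

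Of 23 transporters of zinc, iron, copper, manganese, magnesium and heme, 6 rose, 3 fell and 14 did not pass, with a median of 0.25 (39.1% called, where 33.8% of all genes tested were). The count that rose was 3 without arthritic node library 1 or synovial library 2, and the count that fell was 1 without arthritic node library 3. Slc39a4 (ZIP4), a zinc importer best known from the gut, had 1223, 1025 and 1752 in synovial libraries, against 219, 191 and 354 in arthritic nodes and 212, 98.4 and 209 in control nodes. Groups did not overlap, and Slc39a4 rose by 2.40 ± 0.34 (adjusted p = 0.000172). The magnesium transporter Slc41a1 had 499, 383 and 573 in synovium against 242, 186 and 136 in arthritic nodes and rose by 1.38 ± 0.30 (adjusted p = 0.00388). Of the other zinc importers of the plasma membrane, Slc39a1 (ZIP1) rose by 1.16 ± 0.35 (adjusted p = 0.0211) and Slc39a6 (ZIP6) by 0.65 ± 0.22 (adjusted p = 0.036). Slc39a8 (ZIP8) differed by -0.96 ± 0.39 (adjusted p = 0.0766), Slc39a10 by -0.19 ± 0.23 (adjusted p = 0.559) and Slc39a14 by -0.18 ± 0.79 (adjusted p = 0.891). The call of Slc39a1 was lost without arthritic node library 1 or synovial library 2 (adjusted p = 0.069 to 0.0864). That of Slc39a6 did not pass with quantile scaling (adjusted p = 0.0509), was lost in 4 of 6 fits that each left out 1 library (adjusted p = 0.0703 to 0.131), and was kept without synovial library 1 or arthritic node library 2. The zinc exporter Slc30a1 (ZnT1) rose by 1.36 ± 0.44 (adjusted p = 0.0297), a call lost in 5 of 6 fits that each left out 1 library (adjusted p = 0.0574 to 0.115) and kept without synovial library 3. Slc30a6, which loads zinc into the Golgi, fell by 0.64 ± 0.22 (adjusted p = 0.0408) and its partner Slc30a5 differed by 0.58 ± 0.25 (adjusted p = 0.0951). The call of Slc30a6 did not pass with the mouse block (adjusted p = 0.0575), was lost in 5 of 6 fits that each left out 1 library (adjusted p = 0.0618 to 0.129), and was kept without synovial library 1.

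Slc39a7 (ZIP7), which releases zinc from the endoplasmic reticulum, fell by 0.55 ± 0.19 (adjusted p = 0.0426). It shares 80.7% of its exon bases with a transcript on the same strand, so its reads are uncertain, and its call was lost in 4 of 6 fits that each left out 1 library (adjusted p = 0.113 to 0.143), and was kept without synovial library 3 or arthritic node library 1. The family 11 iron and manganese carriers differed in direction. Slc11a1 (NRAMP1), known from the phagosomes of macrophages, had 113, 151 and 173 in synovial libraries, against 12.2, 11.5 and 0 in arthritic nodes and no read in control nodes. It rose by 4.72 ± 1.07 (adjusted p = 0.00467). The macrophage marker values are those given above, and the part of such cells in this rise was not tested. Slc11a2 (DMT1), the importer of ferrous iron, had 328, 279 and 372 in synovium against 509.6, 582 and 631 in arthritic nodes and fell by 0.82 ± 0.22 (adjusted p = 0.0119). The copper importer Slc31a1 differed by 0.45 ± 0.20 (adjusted p = 0.109).

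Ion exchangers and cation-chloride cotransporters set intracellular pH and cell volume. Of 17 members, 2 rose, 3 fell and 12 did not pass, with a median of -0.04 (29.4% called, where 33.8% of all genes tested were). The bicarbonate transporter Slc4a7 had 1440.2, 1509 and 1487 in synovium, 740.1, 764 and 754 in arthritic and 429, 497 and 593 in control nodes. Its 3 groups were ordered without overlap and with little spread, and it rose by 0.97 ± 0.15 (adjusted p = 0.000297). The sulfate transporter Slc26a2 had 2121, 1647 and 1221 in synovium against 409, 465 and 609 in arthritic nodes and rose by 1.73 ± 0.24 (adjusted p = 0.000178), while Slc26a11 of the same family fell by 1.25 ± 0.36 (adjusted p = 0.0177), a call lost without synovial library 1 or arthritic node library 2 (adjusted p = 0.0567 to 0.067). The potassium-chloride cotransporter Slc12a7 (KCC4) had 179.6, 116 and 183 in synovium, against 630.5, 622 and 856 in arthritic nodes and 661, 423 and 517 in control nodes. It fell by 2.15 ± 0.25 (adjusted p = 3.95e-05). The sodium-driven cotransporter Slc12a2 (NKCC1) differed by 0.17 ± 0.36 (adjusted p = 0.746) and the anion exchanger Slc4a2, which shares 13.7% of its exon bases with genes on the other strand, by -0.37 ± 0.57 (adjusted p = 0.655).

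Nucleoside, vitamin, choline and organic ion transporters had more members that fell. Of 16, 2 rose, 6 fell and 8 did not pass, with a median of -0.30 (50% called, where 33.8% of all genes tested were). All 6 that fell passed in every fit that left out 1 library. The count that rose was 1 without arthritic node library 1 or 2 or synovial library 1 or 3. Slc44a2, a choline transporter-like protein, had 1386, 1456 and 1486 in synovial libraries, against 3705, 4051 and 4065 in arthritic nodes and 3512, 4319.7 and 4737 in control nodes. It fell by 1.45 ± 0.12 (adjusted p = 2.35e-06), to a level 2.73 times lower as a ratio of means. The urea transporter Slc14a1 had 490.3, 279 and 306 in synovium against 1114, 673 and 1065 in arthritic nodes and fell by 1.41 ± 0.24 (adjusted p = 0.000641). The organic cation transporter Slc22a2 had 17.6, 10.6 and 0 in synovium, 118, 42.3 and 73.4 in arthritic and 198, 191 and 143 in control nodes, and fell by 3.60 ± 0.91 (adjusted p = 0.00911). Each of these had no synovial library within the range of the nodes.

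The nucleoside transporters of this class were lower or not called. Slc29a3, the equilibrative transporter of lysosomes, had 229, 101 and 137 in synovium against 306, 387 and 359.9 in arthritic nodes and fell by 1.24 ± 0.30 (adjusted p = 0.00692). Slc28a2, a concentrative transporter of purine nucleosides, fell by 0.89 ± 0.19 (adjusted p = 0.00288), and the equilibrative transporter Slc29a1 differed by -0.10 ± 0.14 (adjusted p = 0.623). In family 19, the reduced folate carrier Slc19a1 had 267, 199.6 and 314 in synovium against 642, 551 and 518 in arthritic nodes and fell by 1.15 ± 0.23 (adjusted p = 0.00196). The thiamine transporter Slc19a2 had 149.9, 109 and 134 in synovium, 16.5, 23.1 and 34.1 in arthritic and 23.1, 15.3 and 96.8 in control nodes and rose by 2.41 ± 0.65 (adjusted p = 0.0129). The riboflavin transporter Slc52a3 had 724, 535 and 564 in synovium, 54.8, 93.3 and 125 in arthritic and 4.01, 74 and 74 in control nodes. It rose by 2.79 ± 0.83 (adjusted p = 0.021), a call lost in 4 of 6 fits that each left out 1 library (adjusted p = 0.052 to 0.0787) and kept without synovial library 2 or arthritic node library 3. The carnitine transporter Slc22a5 differed by -0.62 ± 0.33 (adjusted p = 0.174), the vitamin C transporter Slc23a2 by 0.33 ± 0.24 (adjusted p = 0.324) and the lysosomal Slc46a3 by -0.50 ± 0.23 (adjusted p = 0.11).

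Among 6 lysosomal, vesicular and peptide transporters, 1 rose and 1 fell (33.3% called, near the 33.8% of all genes tested). Slc15a3, a lysosomal carrier of histidine and peptides expressed in myeloid cells, had 1179, 1598 and 3077 in synovial libraries, against 37.4, 53.9 and 128 in arthritic nodes and 11, 0 and 49.3 in control nodes. It rose by 4.80 ± 1.07 (adjusted p = 0.00426), the largest log2 difference among the members that rose. Its exons share 28.1% of their bases with Tmem132a on the other strand, which had 94.8, 103 and 145 in synovium and 2.61, 2.89 and 0 in arthritic nodes, so its reads are uncertain in the same way. Of 9 dendritic cell markers, Clec9a was at 0 in every library and Itgax in all but arthritic node library 2 (3.85). Zbtb46 was higher in synovium (537, 538 and 607 against 4.35, 0 and 62.9 in arthritic nodes), as was Xcr1 (307, 540 and 471 against 23.5, 20.2 and 19.2). H2-Aa and H2-Ab1 did not pass (adjusted p = 0.471 and 0.504). Among synovial libraries, Flt3, Siglech and Cd209a had reads only in library 1 (9.92, 45.2 and 18.7). The marker sum was 1237 to 1391 in synovial, 176 to 257 in arthritic node and 100.4 to 214 in control node libraries. Zbtb46 and Xcr1 made up most of the synovial sum. The part of myeloid cells in the rise of Slc15a3 was not tested. Slc17a9, which loads ATP into vesicles, had 227, 196 and 244 in synovium, against 1124, 943 and 1311 in arthritic nodes and 1298, 1436 and 1674 in control nodes. It fell by 2.33 ± 0.17 (adjusted p = 9.42e-07), to a level 5.06 times lower. The paralogs Slc15a4 and Slc17a5 differed by -0.09 ± 0.38 (adjusted p = 0.882) and -0.30 ± 0.27 (adjusted p = 0.437).

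Nucleotide sugar and other Golgi or endoplasmic reticulum transporters supply glycosylation and protein folding. Members were placed in this class by family number, Slc35f2 and Slc35f6 among them, and not by their own site or cargo. Of 19 members, 4 rose, 3 fell and 12 did not pass, with a median of -0.36 (36.8% called, near the 33.8% of all genes tested). With quantile scaling 4 rose and 7 fell. The count that fell was 6 with DESeq2, 5 with edgeR, and 1 without arthritic node library 1 or 3. Slc35d1, which carries UDP-glucuronic acid and UDP-N-acetylgalactosamine, had 2067, 2645 and 1772 in synovial libraries, against 414, 423 and 156 in arthritic nodes and 390.4, 296 and 346 in control nodes. It rose by 2.82 ± 0.33 (adjusted p = 3.75e-05), with no overlap. Slc35f6 rose by 1.30 ± 0.22 (adjusted p = 0.000773) and Slc35e2 by 1.01 ± 0.19 (adjusted p = 0.00138). The GDP-fucose transporter Slc35c1 had 210.5, 389.8 and 454 in synovium against 800.1, 899.6 and 719 in arthritic nodes and fell by 1.26 ± 0.27 (adjusted p = 0.00304). Slc35b1, which brings ATP into the endoplasmic reticulum, rose by 0.55 ± 0.16 (adjusted p = 0.02), a call lost without synovial library 3 or arthritic node library 1 (adjusted p = 0.0586 to 0.0629). Slc35f2 fell by 0.88 ± 0.31 (adjusted p = 0.0422) and Slc35a4 by 0.36 ± 0.11 (adjusted p = 0.0263). The call of Slc35f2 was lost in 5 of 6 fits that each left out 1 library (adjusted p = 0.0651 to 0.136), and was kept without synovial library 1. That of Slc35a4 did not pass with the mouse block (adjusted p = 0.0566), was lost in 5 of 6 fits that each left out 1 library (adjusted p = 0.053 to 0.0761), and was kept without synovial library 2. The CMP-sialic acid transporter Slc35a1 differed by -0.49 ± 0.18 (adjusted p = 0.0544), which passed with DESeq2 (adjusted p = 0.0487), edgeR (adjusted p = 0.0442), TMM scaling (adjusted p = 0.0460) and quantile scaling (adjusted p = 0.0449), and the acetyl-CoA transporter Slc33a1, which shares exon bases with an antisense gene, by -0.52 ± 0.31 (adjusted p = 0.221).

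The small classes held no called transporter with all libraries, and without synovial library 1 the phosphate class had 1 that rose. The phosphate importers Slc20a1 and Slc20a2 differed by 0.29 ± 0.14 (adjusted p = 0.131) and 0.85 ± 0.52 (adjusted p = 0.237), and the fatty acid transport proteins Slc27a1 and Slc27a4 by 0.44 ± 0.43 (adjusted p = 0.472) and 0.15 ± 1.29 (adjusted p = 0.943). Of the 4 genes that encode no transporter, Slc9a3r1, which encodes the scaffold NHERF1 that anchors exchangers under the membrane, rose by 0.78 ± 0.16 (adjusted p = 0.00224). The pseudogene Slc2a4rg-ps fell by 1.02 ± 0.31 (adjusted p = 0.0225), a call lost in 4 of 6 fits that each left out 1 library (adjusted p = 0.0648 to 0.0778) and kept without synovial library 2 or arthritic node library 3.

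Grouped by family number, 28 families had 2 or more members. Of these, 10 had members called in both directions, 9 had calls only among members that rose, 4 only among members that fell, and 5 had no call. The families split by direction were 5, 11, 16, 19, 25, 26, 30, 35, 37 and 39. Family 38 had 1 of 6 that rose, and family 9, the sodium-proton exchangers, had 0 of 6 called. Family 39 of zinc importers had 3 that rose and 1 that fell among 11.

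Levels were compared between members per kilobase of annotated exon, since longer transcripts give more reads. Slc25a5 was highest in every group, with 6135 normalized counts per kilobase in synovial, 6954 in arthritic node and 7054 in control node Tregs. Slc3a2 followed in synovium at 3287, against 782 in arthritic and 759 in control nodes, and then Slc25a3 at 2836, against 814 in arthritic and 817 in control nodes. The 10 members with the highest mean level held 59.7% of the summed level of all members in synovium, 55.4% in arthritic and 56.8% in control nodes. Most members were low by this measure, and the median coefficient of variation over 3 libraries was 21.7% in synovium, 16.7% in arthritic and 22.5% in control nodes.

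**Figure D4:**
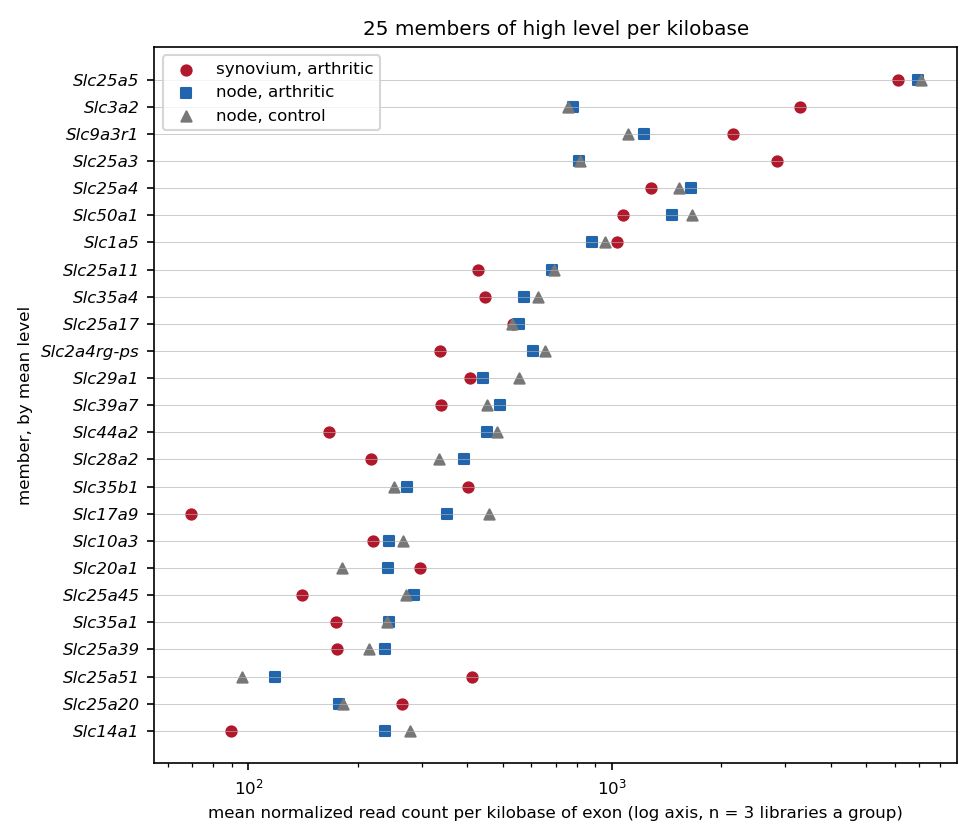
Mean level of 25 members of high level per kilobase of exon, with members not reported here left out. The horizontal axis is the mean normalized count per kilobase on a log axis (n = 3 libraries a group), with circles for synovial, squares for arthritic node and triangles for control node Tregs. The node symbols lie close to each other for most members, and the synovial symbol lies far from them for Slc3a2, Slc25a3, Slc25a51 and Slc17a9.

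Arthritic and control node Tregs were compared to ask what the disease did in the node. With limma, 0 of 149 members were called, where 0.343% of all genes tested were (39 of 11357). At an unadjusted p under 0.05 there were 21 members (14.1%), where 9.08% of all genes lay under it, and 15 of the 21 were higher in arthritic nodes. Libraries did not overlap for 29 members (19.5%), where this held for 14.9% of all genes. The members' minimum mean of 50 lies above the minimum of 10 for all genes here too. edgeR called 0 members, and DESeq2 called 2, where it called 1.53% of genes. These were Slc4a7, with 740.1, 764 and 754 in arthritic nodes against 429, 497 and 593 in control nodes (DESeq2 adjusted p = 0.0283; limma 0.58 ± 0.15 (adjusted p = 0.174)), and Slc11a1, with 12.2, 11.5 and 0 in arthritic nodes against no read in control nodes (DESeq2 adjusted p = 0.0219; limma adjusted p = 0.525). Slc11a1 was at least 2.80-fold higher against a floor of 3 reads per control library, and arthritic node library 3 also had no read.

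Among the smallest unadjusted p-values, with members chosen after their values were seen, Slc25a40, a mitochondrial carrier linked to glutathione, had 328, 351 and 361 in arthritic nodes against 251, 142 and 121 in control nodes. It differed by 1.08 ± 0.27 (adjusted p = 0.178). Without control node library 1, the one that stood apart, Slc25a40 was the single member called, at 1.39 (adjusted p = 0.0423). The phosphate importers differed in sign, with Slc20a2 at 39.1, 27.9 and 19.2 in arthritic and 68.2, 107 and 135 in control nodes (-1.81 ± 0.52 (adjusted p = 0.25)), and Slc20a1 at 1275, 1334 and 1433 in arthritic and 1007, 979 and 1042 in control nodes (0.42 ± 0.14 (adjusted p = 0.356)). Neither passed. Slc5a3 had 349, 348 and 265 in arthritic against 72.3, 247 and 186 in control nodes, without overlap, and differed by 1.08 ± 0.36 (adjusted p = 0.356). Slc35a5 differed by 0.81 ± 0.26 (adjusted p = 0.342) and Slc9b2 by -1.21 ± 0.43 (adjusted p = 0.394).

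Synovial Tregs were also set against control node Tregs, a comparison that differs in tissue and disease and uses the same synovial libraries as the tissue comparison. Here 41 members rose (27.5%, where 21.6% of all genes rose) and 29 fell (19.5%, where 18.5% of all genes fell), with the same unlike minimum means. Without control node library 1, 35 rose and 22 fell. Of the members called between tissues, 34 that rose and 23 that fell were called in the same direction here, 7 were not called, and 0 changed direction. Slc3a2 rose by 2.12 ± 0.10 (adjusted p = 2.48e-08), Slc5a3 by 4.56 ± 0.36 (adjusted p = 1.22e-06), Slc16a6 by 3.12 ± 0.21 (adjusted p = 3.22e-07) and Slc15a3 by 7.73 ± 1.07 (adjusted p = 0.000119). Slc17a9 fell by 2.72 ± 0.17 (adjusted p = 2.01e-07) and Slc44a2 by 1.53 ± 0.12 (adjusted p = 1.12e-06). Slc11a1 was at least 51.8-fold higher in synovial than in control node Tregs, and Slc16a5 at least 53.1-fold lower.

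Of the 13 members called only in that comparison, 3 passed in every fit that left out 1 library. Slc20a1 had 1358, 1890.5 and 1729 in synovium against 1007, 979 and 1042 in control nodes and rose by 0.70 ± 0.14 (adjusted p = 0.00164). The copper importer Slc31a1 had 471, 586 and 611 in synovium against 353, 361 and 258 in control nodes and rose by 0.78 ± 0.20 (adjusted p = 0.00876). Slc25a40 rose by 1.12 ± 0.27 (adjusted p = 0.00647). For these 3, neither the tissue comparison nor the comparison of the nodes passed with all libraries. Several other calls of that comparison were lost when libraries were left out. Slc19a2 rose by 1.95 ± 0.65 (adjusted p = 0.0312), a call lost in 5 of 6 fits that each left out 1 library (adjusted p = 0.0562 to 0.115) and kept without control node library 3. Slc36a4 rose by 1.44 ± 0.45 (adjusted p = 0.022), a call lost in 4 of 6 fits that each left out 1 library (adjusted p = 0.056 to 0.0912) and kept without synovial library 1 or control node library 3. Slc35c1 fell by 0.88 ± 0.27 (adjusted p = 0.0201), a call lost without control node library 2, control node library 3 or synovial library 1 (adjusted p = 0.0646 to 0.0702). Slc25a22 fell by 0.96 ± 0.35 (adjusted p = 0.0441), a call lost in 4 of 6 fits that each left out 1 library (adjusted p = 0.0715 to 0.14) and kept without synovial library 1 or synovial library 3, and not passing with mouse numbers as blocks (adjusted p = 0.0845), where the numbers join different animals. Slc11a2 fell by 0.77 ± 0.22 (adjusted p = 0.0143), a call lost without control node library 1 or control node library 3 (adjusted p = 0.0554 to 0.0561).

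Transport genes outside the Slc symbols were counted from 3 lists. Of 13 tested ion pumps and subunits, 4 rose and 2 fell between tissues, where 17.9% of all genes tested rose and 15.9% fell. The sodium pump subunit Atp1b1 had 28.6, 11.7 and 0 in synovium against 337, 771 and 574 in arthritic nodes and fell by 6.20 ± 0.92 (adjusted p = 0.000256), and the plasma membrane calcium pump Atp2b4 had 1426, 1477 and 1754 in synovium against 178, 226 and 349 in arthritic nodes and rose by 2.67 ± 0.30 (adjusted p = 2.65e-05). Of 20 ABC transporters, 3 rose and 3 fell, about as often as among all genes tested. The drug efflux pump Abcb1a had 2442, 3594 and 3067 in synovium, 1024, 1019 and 874 in arthritic and 408, 339 and 433 in control nodes, with no overlap between any groups. It rose by 1.63 ± 0.17 (adjusted p = 1.36e-05) between tissues and by 1.31 ± 0.17 (adjusted p = 0.0121) in arthritic over control nodes. Abcg3 fell by 2.32 ± 0.29 (adjusted p = 6.83e-05) between tissues.

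Of 31 tested transporters without an Slc symbol and chaperones, 9 rose and 3 fell between tissues, where 17.9% and 15.9% of all genes tested did. Emb encodes embigin, a chaperone of monocarboxylate transporters, and had 44341, 48672 and 47143 in synovial libraries, 6679.6, 7548 and 7077 in arthritic nodes and 4799.6, 4085 and 3795 in control nodes. The groups were ordered without overlap, with a rise of 2.72 ± 0.10 (adjusted p = 5.49e-09) between tissues and of 0.75 ± 0.10 (adjusted p = 0.0121) in arthritic over control nodes. The organic anion transporter Slco2b1 had 197, 175 and 242 in synovium, against 1 read in 1 of the 6 node libraries, and rose between tissues (adjusted p = 7.06e-05). The ratio of reads in synovium to arthritic nodes was 682, with a 95% counting interval of 122 to 27002. The volume-regulated channel subunit Lrrc8d rose by 2.31 ± 0.28 (adjusted p = 4.92e-05) and the calcium channel Orai1 by 1.99 ± 0.46 (adjusted p = 0.00565).

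The authors' deposited table holds a DESeq2 comparison of synovial over arthritic node Tregs, whose direction was settled by rerunning it. In the authors' deposited table, 36 members were higher in synovium (where 17.1% of its genes were) and 27 lower (where 14.1% were) at an adjusted p under 0.05. Of these, 60 had the same call and sign here, and 4 members called here were not called in the authors' deposited table. They were Slc43a2, Slc7a6, Slc25a29 and Slc25a42 (DESeq2 adjusted p = 0.0607, 0.0663, 0.0661 and 0.0761 there). Slc7a1 and Slc35a5, and outside the named members Slc12a4, were called there and not here (DESeq2 adjusted p = 0.0434, 0.0166 and 0.0237 there).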

How the data were processed

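Sorted mouse Tregs gave 9 RNA sequencing libraries (Trizol extraction and the NEBNext Ultra II Directional kit, per the labels' protocols). HISAT2, HTSeq, DESeq2 and the mm10 genome are named in the submitters' processing notes. For versions, annotation and strand setting, nothing was given in the sources used here. A deposited table holds a normalized signal, which is each gene's reads over a library size factor: 100% of nonzero values were whole multiples (within 0.01) of a constant per library. The authors' deposited comparison table gives a mean signal, log2 fold changes and standard errors, a Wald test score and p-values, per the file headers.

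The test was limma 3.58.1 in R 4.3.3 with a mean-variance trend on log2(value + 1), over 11357 genes (mean of at least 10), all 9 libraries in 1 fit. Tests were two-sided with Benjamini-Hochberg adjustment over all genes tested, called under 0.05. Alternatives were edgeR 4.0.16 quasi-likelihood and DESeq2 1.42.0 on recovered reads, TMM or quantile scaling, other pseudocounts and filters, only the groups compared, each library left out, and the mouse number as a block. The titles number the arthritic mice, and same-numbered synovium and node libraries were taken as the same animal from this numbering, which no label states outright. Residuals of same-numbered libraries correlated at 0.02, 0.05 and 0.09, the highest for its own number in 3 of 3. These correlations are low, and residuals taken from the mean of 3 libraries depend on each other. They cannot decide whether the libraries came from the same animal. Fits were tested on simulated data. Counting error alone is covered by the 3-read floor.

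The members, classes and lists were chosen with earlier results of these data known. Members were named if on a list of well-known transporters, or if among the 3 largest called differences of a class and direction. A further 14 of the 97 named were added after their values were seen. The other members enter the fits and counts and are not reported here one by one. Positions and exon lengths came from GENCODE vM21 (GRCm38), where all 149 members matched and 11 shared 10% or more of their exon bases with another gene. Members near the minimum mean of 50 were Slc25a26 (42.5) just outside, and Slc36a1 (51.2) and Slc11a1 (51.3) just inside. Slc11a1 reached it through its synovial libraries. 7 members had a library at 0.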

Additional observations from a re-analysis of the deposited data

How the results depend on the processing

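Between tissues, the counts of members stayed within 1.5 times the reported 36 higher and 28 lower under every alternative run. Leaving out each library in turn gave 25 to 32 higher and 20 to 23 lower. Quantile scaling, which shifted the median of all genes to -0.12, gave 31 higher and 35 lower, DESeq2 37 and 31, edgeR 34 and 28, and no filter 32 and 24. With the mouse number as a replicate block, which joins same-numbered libraries, 35 were higher and 26 lower. The block also called Slc7a1 (adjusted p = 0.0454), and outside the named members Slc39a11 and, of those named later, Slc35a5 (adjusted p = 0.0113). Between nodes, leaving out each library in turn gave 0 to 1 members called higher, the 1 without control node library 1, and DESeq2 gave 2. For synovial over control node Tregs, leaving out each library gave 34 to 41 higher and 22 to 28 lower. No named member changed sign while called. Depth limits low members: a count of 3 reads stands at 2.61 to 3.52, so differences of Slc11a1, Slc22a2 and Slc16a5 rest on few reads in the lower group.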

Other observations

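Just under the minimum mean, Slc2a6, a glucose transporter family member of lysosomes, had normalized counts of 108, 148 and 88.8 in synovial libraries, no read in the arthritic node libraries, and 32.1, 0 and 0 in control node libraries. It was no member and was not counted above. The peptide transporter Slc15a2 was the member that varied most within a group, with 0, 596 and 67.4 in synovial, 27, 287 and 105 in arthritic node and 179.7, 328 and 282 in control node libraries. Its difference of -1.46 ± 1.69 (adjusted p = 0.543) by limma did not pass.

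Some members lie close together on a chromosome. Slc31a1 and Slc31a2 lie 62316 bases apart on chromosome 4, and neither was called between tissues. Slc52a2 and Slc39a4 lie 67775 bases apart on chromosome 15, where Slc39a4 rose and Slc52a2 was not called.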
